A study of Drosophila melanogaster with 3 samples.

Results

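Cuticle protein genes were examined for binding of the transcription factor Vrille (gene vri) in whole Drosophila melanogaster white prepupae. The set held the 114 protein-coding genes of the Ensembl BDGP6 annotation whose symbol is Cpr or Lcp followed by a digit, or begins with Twdl, Pcp or Edg, out of 13945 protein-coding genes on the 6 chromosome arms. It comprised 70 Cpr genes, 15 Lcp genes, 25 Twdl genes, Pcp and 3 Edg genes. The members were taken by symbol alone.

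The study was a chromatin immunoprecipitation with sequencing (ChIP-seq) of 3 biological replicates in 1 group. All came from 1 transgenic line, strain vri-GFP, that carries a green fluorescent protein at the C-terminus of Vrille and was precipitated, per the sample description, with an antibody to that tag, although another label field names the antibody as vri. Animals of both sexes were pooled at the white prepupa stage, with no stated age. No untagged or untreated group was analysed here, and the tissues of the whole animal cannot be told apart in these libraries.

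The insect cuticle is a layered extracellular material of chitin fibres and protein that the epidermis secretes and replaces at each moult. Most Cpr and Lcp proteins and Pcp carry the Rebers and Riddiford region, a chitin-binding sequence, whereas the Tweedle (Twdl) proteins form a family of their own. The white prepupa is the animal at the onset of metamorphosis, when the last larval cuticle is turned into the puparium under the steroid hormone ecdysone, before the pupal cuticle is made. Vrille is a basic leucine zipper protein known as a repressor in the circadian clock and needed for normal development.

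The Rebers and Riddiford region set the Twdl proteins apart from the other families. In the translated canonical coding sequence, a short form of the Rebers and Riddiford pattern was found in 67 of 70 Cpr proteins, 13 of 15 Lcp proteins, the 4 Pcp and Edg proteins and 1 of 25 Twdl proteins, and in 124 of the 13831 other protein-coding genes. The pattern searched was a glycine, 8 residues of any kind, a glycine, 6 of any kind, a tyrosine or phenylalanine, then 2 to 7 of any kind before a glycine followed by a tyrosine or phenylalanine. The proteins were short, with a median of 105 residues for Lcp, 179 for Cpr and 274 for Twdl. The genes had a median span of 986 bp against 2166 bp over all protein-coding genes, and 90.4% of them had a single annotated start site against 73.5%.

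A total of 7 cuticle genes, all of the Cpr family, had a Vrille summit near a start site. A gene was called bound when the summit of an optimal peak, one kept by the authors after comparing replicates by irreproducible discovery rate (IDR), lay within 1 kb of any of its start sites. By this rule 7 of 114 members were bound (6.14%), against 27.5% of all protein-coding genes. The bound genes were Cpr62Ba, Cpr65Aw, Cpr73D, Cpr51A, Cpr72Eb, Cpr49Aa and Cpr12A, which made 7 of the 70 Cpr genes (10%). None of the 15 Lcp genes, the 25 Twdl genes or the 4 Pcp and Edg genes was bound.

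The low share held in each replicate taken by itself. With each replicate's own 9264 highest entries in place of the optimal list, replicates 1, 2 and 3 placed a summit within 1 kb of 6, 7 and 7 members. That made 5.85% ± 0.506 of the members and 28.4% ± 1.22 of all protein-coding genes (mean and SD, n = 3). The genes were not the same in each replicate. Replicates 1 and 2 did not list Cpr12A, and replicate 2 listed Cpr47Ec, unbound by the optimal list, at rank 7899. The members lay below all genes in every replicate, and no replicate listed an Lcp, Twdl, Pcp or Edg gene among these entries. With 3 samples of 1 group there is no contrast between groups to test, so these shares are descriptions.

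**Figure D1:**
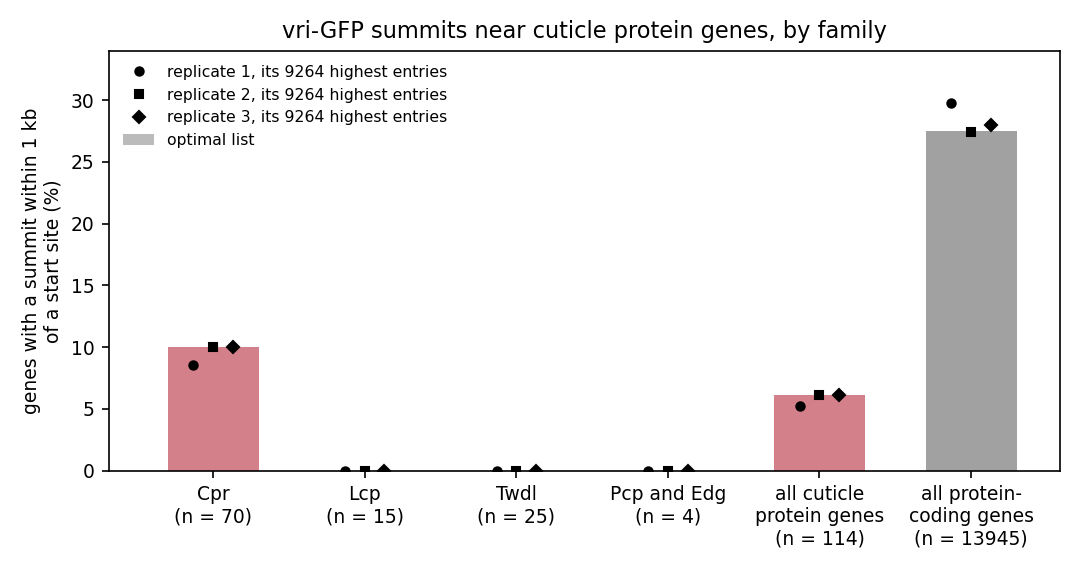
Share of genes with a summit within 1 kb of a start site (y axis, percent), by family and over all protein-coding genes. Bars give the optimal list and the 3 symbols give each replicate's own 9264 highest entries; Cpr reached 10%, the other cuticle families 0%, and all protein-coding genes 27.5%.

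The members are mostly short genes with a single start site, a class with fewer bound genes in general. Among members under 2 kb with 1 start site 4 of 91 were bound (4.4%), against 893 of 5696 other genes of that class (15.7%). Among the longer members, or those with several start sites, 3 of 23 were bound (13%), beside 27.5% of all protein-coding genes. No share was taken over all genes of that longer class, so the 13% is not to be read beside the 15.7%. Genes outside the set that had a start site within 10 kb of a member's start site were bound in 47 of 172 cases (27.3%), a share near that of all genes. The members' share was thus below that of other short genes with 1 start site and that of their own neighbours, in counts that carry no test.

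By chromosome arm, 4 of 46 members on 3L, 2 of 27 on 2R and 1 of 8 on X were bound, against 27.8%, 29.1% and 26.2% of all protein-coding genes on 3L, 2R and X. None of the 26 members on 3R or of the 7 on 2L was bound, while 28.5% and 25.4% of all protein-coding genes on those arms were. Chromosome 4 held no member.

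The summits at bound members sat away from the start site. Counting each bound gene by its nearest summit, the distance was between 250 and 748 bp in the 7 members with a median of 488 bp, against a median of 123 bp over the 3830 bound protein-coding genes. No member had a summit within 200 bp of a start site, whereas 64.3% of all bound genes did, which was 17.7% of all protein-coding genes. The nearest summit of all, 250 bp inside Cpr73D, lay on the annotated start site of the neighbouring gene Ogdh, at a distance of 0 bp.

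The sequences around the highest summits of 5 of the 7 bound genes are shown. Each holds the gene's highest summit and 50 bp to either side, read from the RefSeq Release 6 genome (dm6), with capitals on any letters of the motifs named further on.
Cpr62Ba (chr3L:1827958-1828058, plus strand): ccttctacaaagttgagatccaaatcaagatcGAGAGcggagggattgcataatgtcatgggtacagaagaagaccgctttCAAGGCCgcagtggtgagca
Cpr65Aw (chr3L:6141663-6141763, plus strand): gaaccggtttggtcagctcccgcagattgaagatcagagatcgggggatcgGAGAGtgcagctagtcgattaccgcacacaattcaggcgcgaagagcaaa
Cpr73D (chr3L:16958063-16958163, plus strand): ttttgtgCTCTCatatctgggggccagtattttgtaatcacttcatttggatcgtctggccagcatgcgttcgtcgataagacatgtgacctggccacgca
Cpr72Eb (chr3L:16364382-16364482, plus strand): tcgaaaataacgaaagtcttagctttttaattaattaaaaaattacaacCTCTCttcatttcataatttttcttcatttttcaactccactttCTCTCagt
Cpr12A (chrX:13543297-13543397, plus strand): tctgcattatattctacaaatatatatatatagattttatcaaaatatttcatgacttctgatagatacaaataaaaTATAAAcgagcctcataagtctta
The capitals mark GAGAG, read as CTCTC on the other strand, in the first 4, the FTZ-F1 core CAAGGCC near the end of the Cpr62Ba window, and TATAAA in the Cpr12A window. The summits of Cpr51A and Cpr49Aa are described without sequence. The Cpr51A window held a VP box, a Vrille site described further on, and no GAGAG, and the Cpr49Aa window held none of the motifs.

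Peak heights are given as relative signal, the authors' signal value of the replicate's overlapping entry divided by that replicate's median over optimal peaks, so that 1 is a middling peak. Cpr62Ba, which encodes a protein of the Rebers and Riddiford type, had the highest peak of the set. Its main summit, at position 1828008 of 3L in an intron and 934 bp downstream of the nearer start site, had relative signals of 2.48, 3.46 and 3.22 in replicates 1, 2 and 3. These averaged 3.06 ± 0.51 (SD, n = 3), and the peak ranked 628 of the 9264 optimal peaks. All 3 replicates were well above the median peak, with replicate 1 the lowest. Another intronic summit 790 bp upstream of a start site averaged 1.08 ± 0.127 and ranked 3795. The remaining summit, 733 bp downstream and within the same peak interval as the main one, averaged 0.429 ± 0.188 and ranked 8146.

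Cpr65Aw, a member of the large gene cluster on 3L, had the next highest peak. Its relative signals were 2.34, 3.14 and 2.24 in replicates 1, 2 and 3, which averaged 2.57 ± 0.496 (SD, n = 3) at rank 928. The summit at position 6141713 of 3L fell 700 bp downstream of the start site, past the end of this gene on the minus strand, in annotated intergenic sequence. The start site of Lcp65Ad, on the opposite strand, lay 1682 bp from the same summit.

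Cpr73D shared its summits with a gene of another kind. Its highest summit lay 424 bp upstream of a Cpr73D start site and 674 bp downstream of a start site of Ogdh, which encodes a subunit of the mitochondrial 2-oxoglutarate dehydrogenase. The relative signals there were 1.44, 1.92 and 1.49 in replicates 1, 2 and 3, with a mean of 1.62 ± 0.267 (SD, n = 3) and rank 2617. The summit at the Ogdh start site gave 1.17, 2.23 and 0.871, a mean of 1.42 ± 0.716, so its height differed between replicates by more than its distance from the median peak. The last summit lay 628 bp upstream of the Cpr73D start site and 878 bp downstream of the Ogdh one. It gave 0.481 and 0.859 in replicates 1 and 2. In replicate 3 the nearest overlapping entry was that of the highest summit, at 1.49, so this summit had no value of its own. All 3 summits belonged to 1 peak interval, and none of the other 6 bound members had its highest summit within 1 kb of another protein-coding start site.

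Cpr51A on 2R had a summit 488 bp upstream of its start site in intergenic sequence. Its relative signals were 1.56, 1.46 and 1.45 in replicates 1, 2 and 3, the narrowest spread of the 7 relative to the mean (1.49 ± 0.062, SD, n = 3), at rank 2485. Cpr72Eb, the middle gene of a cluster of 3, had an intergenic summit at position 16364432 of 3L, 467 bp upstream. It read 1.42, 1.18 and 1.22 in replicates 1, 2 and 3, a mean of 1.27 ± 0.126 (SD, n = 3) at rank 3028. Both genes were above the median peak in all 3 replicates.

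The remaining 2 bound genes had low peaks. At Cpr49Aa on 2R the summit lay 748 bp downstream of the start site, in an untranslated exon near the end of this gene of 0.753 kb. It gave 0.912, 0.816 and 0.743 in replicates 1, 2 and 3 (0.824 ± 0.0844, SD, n = 3; rank 5677), below the median peak each time. At Cpr12A on X the summit at position 13543347, 296 bp upstream, gave 0.436, 0.431 and 0.806 (0.558 ± 0.215, SD, n = 3; rank 8631). Only replicate 3 listed the Cpr12A entry among its own 9264 highest, at rank 6278, against ranks 12301 and 12556 in replicates 1 and 2. When any 1 replicate was left out and a peak had to overlap one of the 9264 highest entries of both others, the call at Cpr12A was lost and 6 bound members were left. The share of all protein-coding genes fell as well, to 22.1%, 23.5% and 23% without replicates 1, 2 and 3, in place of 27.5%.

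**Figure D2:**
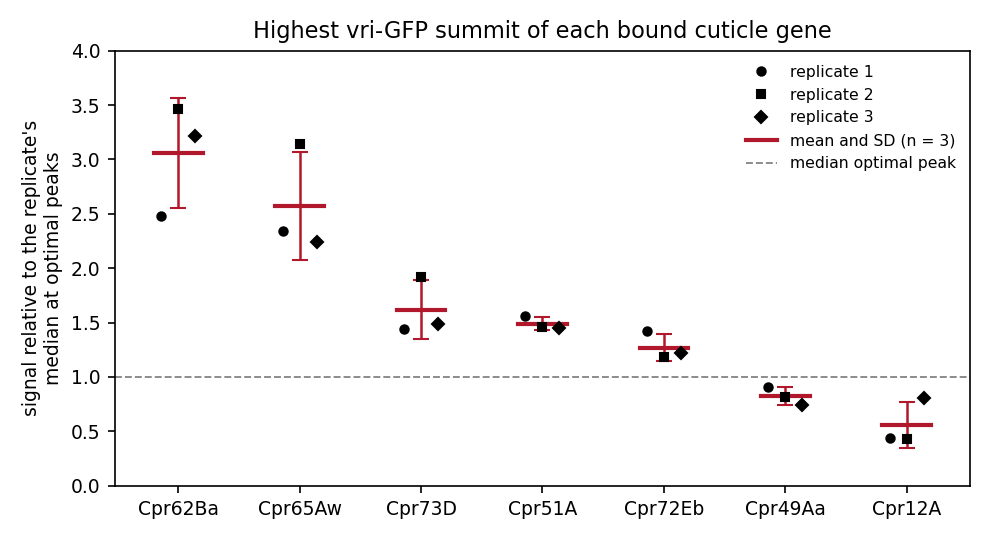
Relative signal (y axis, the replicate's signal over its median at optimal peaks) of the highest summit of each bound cuticle gene (x axis). Symbols are the 3 replicates and red lines give the mean and SD; Cpr62Ba and Cpr65Aw were above 2 in every replicate, and Cpr49Aa and Cpr12A below the dashed line at 1.

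The optimal ranks of the 7 highest summits ran between 628 and 8631 with a median of 2617, and the median over all bound protein-coding genes was 3305. Of the 7, 5 were in the upper 50% of the optimal list, against 66.3% of all bound genes.

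The rule's 1-kb limit fell in a gap of the members' distances. The bound member with the farthest nearest summit was Cpr49Aa at 748 bp, and the next members beyond the limit were Cpr49Ab at 1066 bp, Cpr72Ea at 1226 bp, Cpr47Eg at 1264 bp and Cpr97Eb at 1272 bp. The Cpr49Ab summit was the Cpr49Aa one. The Cpr72Ea summit was intergenic, averaged 0.621 ± 0.3 and had no other start site within 1 kb. The summit near Cpr47Eg lay within 1 kb of Vhl, the von Hippel-Lindau homologue, and CG9067 and averaged 1.08 ± 0.117, and the one near Cpr97Eb lay within 1 kb of CG14258 and averaged 0.704 ± 0.15 (SD, n = 3 each). All 4 lay upstream of the named gene.

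Entries of the replicate lists below the optimal list were also few. An entry within 1 kb of a start site in each of the 3 whole lists of 30000 was found for 17 members (14.9%), against 36.2% of all protein-coding genes. These were the 7 bound genes and 10 others, 5 Cpr, 3 Twdl, Lcp65Ad and Pcp. No entry in any list was found near 82 members (71.9%), against 46.3% of all genes, and 15 members had an entry in 1 or 2 lists. By family, no list held an entry for 21 of 25 Twdl, 10 of 15 Lcp, 50 of 70 Cpr and 1 of 4 Pcp and Edg genes.

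The unbound members' highest entries in the pooled list were low. The replicate values given beside them are each list's own highest entry within 1 kb of a start site. These need not lie at the same place in every list. The highest were those of Cpr49Ac, with relative signals of 0.392, 0.465 and 0.285 in replicates 1, 2 and 3, of Cpr66D, listed at 0.393 and 0.293 in replicates 1 and 2 alone, and of Cpr67Fb at 0.266, 0.266 and 0.426. For Lcp they were those of Lcp65Ad, at 0.231, 0.289 and 0.315, and of Lcp4. The Lcp65Ad entry of replicate 1 lay downstream of the start site and those of replicates 2 and 3 upstream. For Twdl they were TwdlG at 0.188, 0.356 and 0.306, TwdlF at 0.203, 0.218 and 0.182, and TwdlE at 0.166, 0.208 and 0.216. All of these were below the signal of the median optimal peak in every replicate that listed them. Cpr47Ec, named after its values were seen, had higher replicate entries of 0.548, 0.665 and 0.468 but none in the pooled list, and its nearest optimal summit was 19733 bp away. The 13 unbound members with a pooled entry ranked between 12521 and 27253 of 30000.

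The Edg genes were not bound. Edg78E and Edg84A encode cuticle proteins that are known to be made in prepupae after the ecdysone pulse, under the nuclear receptor Ftz-f1. Edg78E had no entry within 1 kb in any replicate, and its nearest optimal summit lay 6771 bp upstream. That summit was 1 of the highest in the data, at rank 56 with relative signals of 8.72, 6.48 and 7.31 in replicates 1, 2 and 3 (7.5 ± 1.13, SD, n = 3), and it lay within 1 kb of CG11309 and CG7632. Edg84A had its nearest summit 75.2 kb downstream, near bcd, the farthest of all members, with 1 entry in replicate 3 at 0.164. Edg91, a glycine-rich cuticle protein gene, was 2.22 kb from a summit near CG14327 and CG34281, and it had entries of 0.157 and 0.308 in replicates 2 and 3.

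Pcp, the pupal cuticle protein gene, lies inside the span of Gart, a gene of purine synthesis on the opposite strand. Gart was bound, and the intronic Gart summit nearest to Pcp was 1.98 kb upstream of it, with 0.699, 1.01 and 0.701 in replicates 1, 2 and 3 (0.802 ± 0.177, SD, n = 3). Just upstream of its own start site Pcp had entries of 0.272, 0.263 and 0.282, which differed little between replicates and stayed below the authors' threshold. Pcp was 1 of 12 members that lay wholly within the span of another protein-coding gene. None of the 12 was bound, against 364 of the 1875 protein-coding genes so placed (19.4%). The 12 lay in 6 hosts, and 10 of the 12 had a bound host. These 10 count some hosts several times, with the 4 genes Cpr64Aa to Cpr64Ad inside CG43367 and the 4 genes TwdlX to Twdlalpha inside goe, a gene for a metalloprotease-like protein. No share of bound hosts over all genes so placed was taken.

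Lcp1, Lcp2, Lcp3 and Lcp4 encode the major cuticle proteins of the last larval instar. Their nearest optimal summit was a single one beyond Lcp4, near Cyp4ad1, at 11.8, 8.23, 7.58 and 5.37 kb from Lcp1, Lcp2, Lcp3 and Lcp4, with relative signals of 0.86, 1.29 and 0.91 in replicates 1, 2 and 3. Lcp2 and Lcp3 shared a weak entry of 0.142 and 0.182 in replicates 1 and 2, Lcp4 had 1 of 0.331 in replicate 2, and Lcp1 had none. The 4 genes lay in a stretch of 116 kb without an optimal summit.

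Cuticle genes lie in tandem clusters, and most clusters held no summit. Joining members at most 20 kb apart gave 14 clusters of at least 3 members, which held 79 of the 114 genes. In 10 of the 14 clusters no optimal summit lay within the span. The spans added up to 223 kb with 8 summits, or 3.59 per 100 kb against 6.92 per 100 kb over the arms. In the replicate lists the clusters held 34, 32 and 28 entries, 14.1 ± 1.37 per 100 kb (SD, n = 3) against 22.4 per 100 kb over the arms. Members in clusters were bound in 4 of 79 cases (5.06%) and members outside in 3 of 35 (8.57%), against 27.5% of all protein-coding genes. Genes under 2 kb made up 88.6% of the members in clusters and 71.4% of those outside.

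The 4 clusters with a bound member each had a single bound gene. In Cpr62Ba-Cpr62Bc the 3 summits all belonged to Cpr62Ba, and the other 2 genes had no entry within 1 kb in any replicate. In Cpr72Ea-Cpr72Ec the only summit was that of Cpr72Eb. The cluster Cpr49Aa-Cpr49Ah had 3 summits, of which 1 was counted for Cpr49Aa, 1 lay 121 bp from the start site of CG8501, and 1 lay between CG8501 and Cpr49Ac, 1565 bp upstream of Cpr49Ac. Its replicate lists held 16, 14 and 11 entries, the most of any cluster, in the longest span (38.5 kb), and these counts are not scaled to length.

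Lcp65Ag3-Cpr65Az, the largest cluster, held 17 members, 10 Lcp and 7 Cpr, in 31.2 kb. It had 1 optimal summit, that of Cpr65Aw, and 13 of its genes had no entry within 1 kb in any list. From that summit to the next optimal one, in an intron of LanA, ran 75.6 kb with 10 members. TwdlM-TwdlD held 12 Twdl genes in 21.9 kb. Its span had 0 entries in replicate 1, 0 in replicate 2 and 0 in replicate 3, and it lay in a stretch of 126 kb between summits in an intron of scrib and beside amon.

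**Figure D3:**
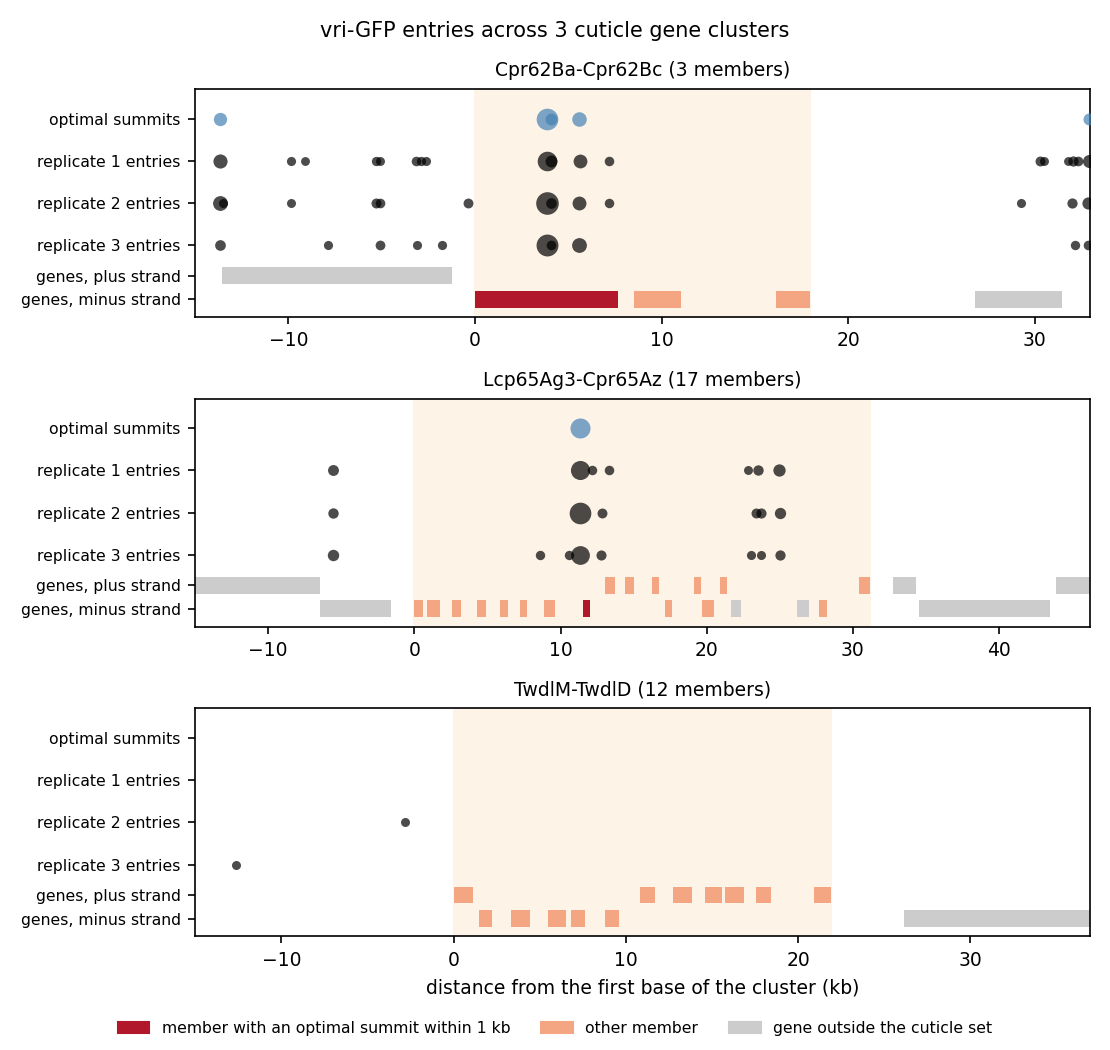
Maps of 3 clusters, with distance from the first base of the cluster on the x axis (kb) and the cluster span shaded. Circles are summits of the optimal list (blue) and of each replicate's list of 30000 entries (black), with area growing with relative signal, above the genes by strand; inside the shaded spans, Cpr62Ba-Cpr62Bc has 3 optimal summits, Lcp65Ag3-Cpr65Az has 1, and TwdlM-TwdlD has no entry of any list.

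The spans of Cpr64Aa-Cpr64Ad, Cpr76Ba-Cpr76Bd, Cpr78Ca-Cpr78Cc and TwdlX-Twdlalpha also had 0 entries in all 3 replicates. Cpr65Ea-Cpr65Ec had 1 entry in each replicate in a stretch of 133 kb without an optimal summit, the longest around any cluster. Cpr47Ea-Cpr47Eg had 1, 2 and 1 entries, Cpr67Fa1-Cpr67Fb had 2, 1 and 2, TwdlF-TwdlV had 2 in each, and Lcp1-Lcp4 had 1, 2 and 0, in replicates 1, 2 and 3. High peaks flanked some of these empty spans. A summit of rank 244 lay 22.5 kb to the right of Cpr76Ba-Cpr76Bd, and the rank 56 summit lay 3.4 kb to the right of Cpr78Ca-Cpr78Cc, the cluster that holds Edg78E.

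Over all 114 members the nearest optimal summit was a median of 9.36 kb from a start site (quartiles 4.77 and 19.9 kb), against 5.58 kb (0.686 and 15.5 kb) over all protein-coding genes. The median was 27.8 kb for Twdl, 9.24 kb for Cpr and 7.58 kb for Lcp. Beyond 10 kb lay 68% of Twdl, 47.1% of Cpr and 20% of Lcp genes, against 36.2% of all genes. The Twdl values lean on 1 locus. The cluster TwdlM-TwdlD holds 12 of the 25 Twdl genes, at 30623 to 51530 bp, all in 1 stretch of 126 kb without an optimal summit. An optimal summit inside the annotated gene was found in 3 members (2.63%), against 18.8% of all genes. The gap was smaller among genes under 2 kb with 1 start site, where the shares were 1.1% of members and 3.06% of all, and the median distances 9.59 kb in members and 7.65 kb in all.

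**Figure D4:**
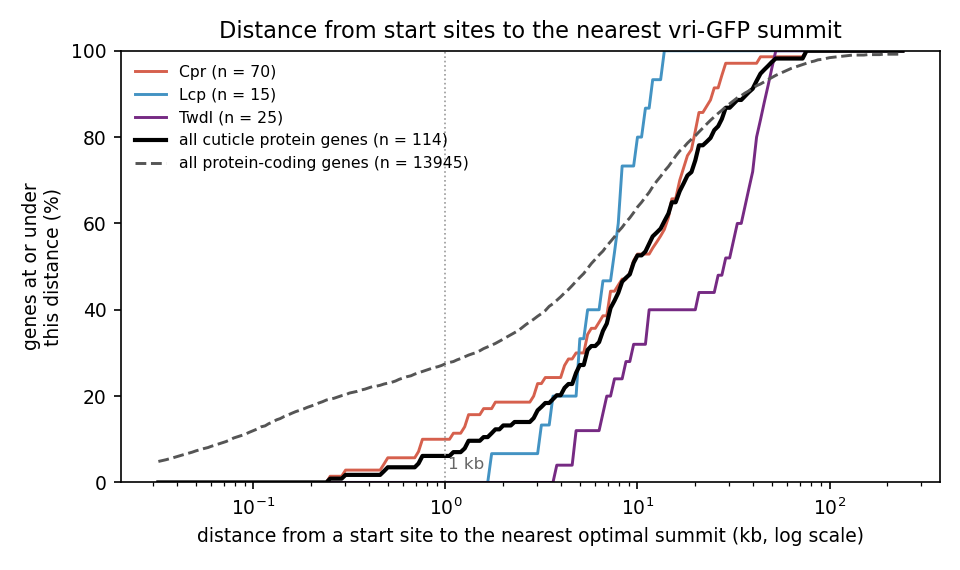
Cumulative share of genes (y axis, percent) by the distance from a start site to the nearest optimal summit (x axis, kb, log scale), for 3 cuticle families, all 114 members and all protein-coding genes. The members' curve stays at 0 up to 250 bp and reaches 6.14% at 1 kb, where all protein-coding genes stand at 27.5%. The Twdl curve lies farthest right with a median of 27.8 kb, and 12 of the 25 Twdl genes are the single cluster TwdlM-TwdlD.

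Some Lcp and Cpr genes are near-identical copies, where short reads may match several places. Of the 30-base words within 1 kb of a start site, a median of 100% occurred once on the 6 arms, both for members and for all protein-coding genes. Fewer than 80% did at 8 members (7.02%), against 3.83% of all genes, and the lowest were Lcp65Ab1 at 25.6% and Lcp65Ab2 at 26.7%. Of the 106 other members 7 were bound (6.6%), against 28.2% of all genes with at least 80%. How the authors treated reads with several matches is not given in the sources used here.

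The promoters of the members had a shared feature that the rule did not use. TATAAA on the gene's strand, with its first base 40 to 20 bp before the start site, was present in 67 of 114 members (58.8%) against 7.92% of all protein-coding genes. It was found in 11 of 15 Lcp, 15 of 25 Twdl, 37 of 70 Cpr and the 4 Pcp and Edg genes. Among genes under 2 kb with 1 start site, 61.5% of members had it against 12.7% of all. The bases before the start site are shown for 5 unbound genes, 3 of the Pcp and Edg group, 1 Twdl and 1 Lcp gene. All 5 have TATAAA there, in capitals, whereas 47 of the 114 members lack it. Each sequence is the 100 bp that end just before the start site, on the gene's strand of the same RefSeq genome.
Edg78E (chr3L:21297804-21297903, minus strand): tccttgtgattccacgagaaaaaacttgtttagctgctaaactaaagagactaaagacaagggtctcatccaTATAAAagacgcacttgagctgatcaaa
Edg84A (chr3R:6684345-6684444, plus strand): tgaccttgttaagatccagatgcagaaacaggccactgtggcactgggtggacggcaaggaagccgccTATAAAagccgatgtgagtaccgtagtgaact
Pcp (chr2L:7021582-7021681, plus strand): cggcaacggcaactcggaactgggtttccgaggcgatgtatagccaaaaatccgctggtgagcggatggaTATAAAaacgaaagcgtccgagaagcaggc
TwdlD (chr3R:26639925-26640024, plus strand): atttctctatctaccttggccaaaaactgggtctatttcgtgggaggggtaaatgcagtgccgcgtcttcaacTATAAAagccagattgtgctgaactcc
Lcp65Ac (chr3L:6144719-6144818, plus strand): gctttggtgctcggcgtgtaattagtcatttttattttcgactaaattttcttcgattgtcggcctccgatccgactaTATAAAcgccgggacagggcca
The first T lay 28, 32, 30, 27 and 22 bp before the start sites of Edg78E, Edg84A, Pcp, TwdlD and Lcp65Ac. Capitals mark TATAAA alone in these sequences. The Edg84A sequence also holds, near its beginning and in small letters, the FTZ-F1 core CAAGGTC as read on the other strand.

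Across the annotation the bound share was lower among genes with TATAAA at this place. Of all protein-coding genes with it 15.9% were bound, against 28.5% of those without it. Within genes under 2 kb with 1 start site the shares were 10% of 737 and 16.3% of 5050. Among the members 3 of 67 with it were bound (4.48%), namely Cpr49Aa, Cpr51A and Cpr72Eb, against 4 of 47 without it (8.51%). Among short members with 1 start site 2 of 56 with it and 2 of 35 without it were bound. Each of these member shares lay below that of all genes of the same class, and the part of the promoter type in the members' low share was not tested.

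**Figure D5:**
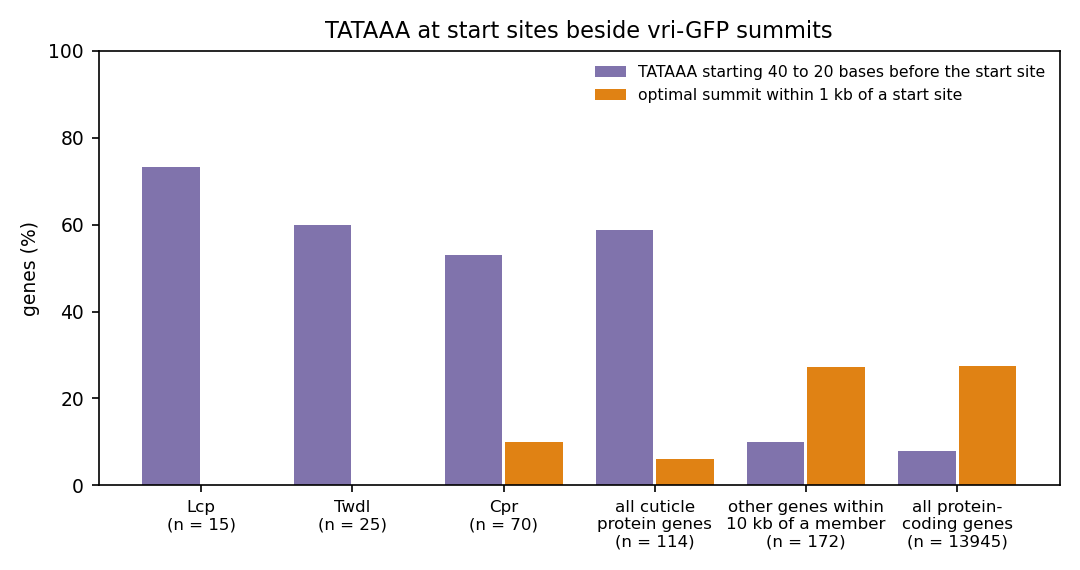
Share of genes (y axis, percent) with TATAAA 40 to 20 bases before the start site (violet) and called bound (orange), for cuticle families, all 114 members, other genes within 10 kb of a member and all protein-coding genes. The members had 58.8% with TATAAA and 6.14% bound, against 7.92% and 27.5% of all protein-coding genes.

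Other letters were searched on both strands within 50 bp of the 11 summits of bound members. The VP box, a Vrille site written TTATGTAA or TTACGTAA, was present under 1 of the 11, that of Cpr51A, and under 2.34% of all 9264 optimal summits. The C/EBP site (TTGCGTAA, TTACGCAA, TTGCGCAA or TTACGTAA, the last also a VP box) and the DREF site TATCGATA were under none, against 1.96% and 0.788% of all summits. The FTZ-F1 core, CAAGGTC or CAAGGCC, was under the main Cpr62Ba summit alone (1.08% of all summits). GAGAG was under 5 of 11 (16.7% of all summits) and TATAAA under 3 of 11 (13.6%). In the 300 bp promoter windows, 250 bp before to 50 bp after the start site, the VP box was found in 0.877% of members against 2.65% of all protein-coding genes, and the DREF site in 0.877% against 8.94%. TATAAA anywhere in the window was found in 77.2% against 45.3%, GAGAG in 33.3% against 30.2%, the FTZ-F1 core in 3.51% against 2.93%, and the C/EBP site in 1.75% against 1.59%. A match is a description of letters, and it does not show which of them a protein used.

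Genes of cuticle formation outside the set were listed for comparison. Of 20 cuticle proteins with other names 2 were bound, obst-E and snsl, and of 9 tanning genes none was. These counts stand beside the 27.5% of all protein-coding genes. Of 20 genes of chitin synthesis and assembly 7 were bound (35%), a share near that of all genes, and of 6 regulators of cuticle genes 5 were, ftz-f1, Eip74EF, grh, Hr3 and Blimp-1. The highest peaks were at ftz-f1, the receptor gene that acts on Edg78E and Edg84A, with 3.63, 4.07 and 2.62 in replicates 1, 2 and 3 (3.44 ± 0.744, SD, n = 3), and at Eip74EF, an early ecdysone-response gene, with 2.67, 2.97 and 3 (2.88 ± 0.182). The chitin deacetylase gene verm averaged 2.13 ± 0.172 and the chitinase gene Cht7 1.69 ± 0.36. The nearest summits lay 127, 19, 48 and 158 bp from the start sites of ftz-f1, Eip74EF, verm and Cht7, all closer than any summit of a cuticle protein gene.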

How the data were processed

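The deposited data are narrowPeak lists of ChIP-seq on vri-GFP white prepupae, 3 biological replicates. Per the depositors' note files, the authors made a list of peaks and background from the alignments of each replicate and of the pool, each time with 1 more file from which control-normalised tracks were also derived, and an optimal list by IDR. For the aligner, the caller and the IDR cutoff, names and versions are not given in these sources. The authors' signal value (column 7) was used. The deposited −log10 q values (column 9) were read only to check the format. The lists hold no read counts, so depth is unknown. Only the dm6 lists were used.

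Summits (peak start plus summit offset) were placed against Ensembl release 115 start sites. Each optimal peak took, per replicate, the entry overlapping it by at least 1 bp whose summit was nearest, and that signal was divided by the replicate's median over optimal peaks (81.4, 46.8 and 78.5 in replicates 1, 2 and 3). Optimal peaks overlapping a replicate's 9264 highest entries made up 89.4%, 83.9% and 88.1%. No entry had the same interval and signal in any pair of replicates. The labels give biological replicates of 1 line, so SDs measure the spread between these samples. Sequences came from RefSeq Release 6 (dm6). Python 3.11.15, NumPy 2.4.6, pandas 2.3.3 and matplotlib 3.10.9 were used. The calling functions were tested on simulated data.

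The members were taken by symbol, but this set of genes, the gene lists and the rules were chosen with earlier results of these data known. Named genes were every bound member, members 1 to 1.5 kb from a summit, Edg78E, Edg84A, Edg91, Pcp and Lcp1 to Lcp4, the 3 unbound members per family with the highest pooled entry where there were as many, genes sharing a summit with a bound member, clusters by their first and last member, and the bound other cuticle genes with the 4 highest peaks. The placement of TATAAA, the 200-bp distance, the 30-base words and the count of nested genes were added after the data were seen. The alternatives were other windows, nearest-gene assignment, peak intervals, the stronger 50% of peaks, each replicate left out, RefSeq start sites and other cluster gaps. No set or chance test was made.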

Additional observations from a re-analysis of the deposited data

How the results depend on the processing

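No paired analysis was possible because there is 1 group, so there are no pairs and the result comes from no test. The 7 bound members became 4 with a window of 500 bp (Cpr62Ba, Cpr65Aw and Cpr49Aa lost), 15 with 2 kb and 0 with 200 bp, the last a window added after the data were seen. All bound members are Cpr genes, so the Cpr count was 4 with 500 bp and 0 with 200 bp, while with 2 kb it was 13, with 1 Lcp gene (Lcp65Ad) and 1 of the Pcp and Edg genes (Pcp). The share of all protein-coding genes was 23% with 500 bp, 33.2% with 2 kb and 17.7% with 200 bp, in place of 27.5%. It was 18.2% with the stronger 50% of optimal peaks, 28.6% with peak intervals, 22.1% with nearest-gene assignment and 27.5% with RefSeq start sites. The members were below all genes in each of the 10 alternative calls. Leaving out each replicate in turn gave 6 bound members each time, always without Cpr12A. Over all protein-coding genes it gave 22.1%, 23.5% and 23% without replicates 1, 2 and 3. Peak intervals gave 8, nearest-gene assignment and RefSeq start sites 7, the stronger 50% gave 5, and members with mostly single-copy words gave 7. Clusters joined at 5 kb had 2 with a bound member, in place of 4 at 20 kb. With only the 9264 highest entries of each list, 6 members (5.26%) had an entry in all 3 replicates, in place of 17. Over all protein-coding genes the share was 22.2%, in place of 36.2%. The relative signals of the 7 highest summits in the pooled list, which holds the same reads, lay within 1 SD of the replicate means, and with 3 values a mean without 1 replicate cannot move by as much as 1 SD. Ranks per replicate are on another scale and were not set against relative signals. Depth is unknown, so an unlisted site is one not detected in these lists.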
